A study of Homo sapiens with 11 samples.

Results

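The genes described here are the Toll-like receptors TLR1, TLR2, TLR4, TLR5, TLR6, TLR7 and TLR8 together with CD14, LY96 and MYD88, 10 genes of the 38557 in the joined table of raw fragment counts. They were found by symbol, and each had 1 entry. The cells were MOLM-13, an established cell line from a KMT2A-rearranged acute myeloid leukemia (AML), so all groups share 1 cell line and its fusion gene. Cells were exposed for 72 h to DMSO as the diluent control (4 libraries), to 1 µM MI-503, an inhibitor of the Menin-KMT2A interaction (4 libraries), or to 1 µM MI-503 + 100 nM PR-957, also called ONX-0914, an inhibitor of the immunoproteasome subunit PSMB8 (3 libraries, replicates 1, 2 and 4), called the combination below. No library of cells exposed to PR-957 alone was analysed here, and the combination can be set only against DMSO and MI-503. Poly(A) RNA was sequenced, and nothing in the sources used here says that replicates came from separate cultures, so the p-values measure the spread between these libraries, which may be technical.

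Toll-like receptors are membrane proteins of innate immune cells that bind microbial molecules through leucine-rich repeats and signal through a cytoplasmic TIR domain. TLR2 pairs with TLR1 or TLR6 to bind bacterial lipoproteins. TLR4 binds lipopolysaccharide (LPS) only together with its small soluble partner MD-2, the product of LY96, and CD14 hands LPS to that complex. TLR5 binds flagellin, TLR7 and TLR8 bind single-stranded RNA in endosomes, and MYD88 is the adaptor that most of these receptors use to reach the IRAK kinases and NF-kB. Monocytes express many of these genes, and several of them rise as myeloid precursors mature.

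The libraries held 18891243 to 41153974 counted fragments. Levels are given as CPM, fragment counts scaled to a common library total with TMM factors between 0.957 and 1.056, and values between genes are compared only as CPM per kb of exon. Among 10039 genes averaging 5 CPM or more, combination replicate 1 differed over 2-fold from its group mates in 31, replicate 2 in 2 and replicate 4 in 10, and no DMSO or MI-503 library did so in more than 1. The members' results on the combination are therefore also given without its replicate 1 (for TLR7, with 3 fragments left, the ratio to DMSO was 0.922). Myeloid markers fitted the label of the cells, with 8 of 8 at or above 1 CPM in every group, while the T cell list summed to at most 0.902 CPM. In the lists for other lineages MS4A1, the B cell surface marker, was at 0 in every library, and the sums of the B cell, NK cell and erythroid lists came mainly from PAX5, NCAM1 and EPOR.

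Of the 10 genes, TLR1, TLR2, TLR4, TLR6, LY96 and MYD88 passed the filter on low counts and were tested, and TLR5, TLR7, TLR8 and CD14 did not. On the hg38 build TLR1 (chr4:38791055-38806262, minus strand), TLR6 (chr4:38823680-38857767, minus strand) and TLR2 (chr4:153684080-153710643, plus strand) lie on chromosome 4. TLR4 lies at chr9:117704403-117724735 on the plus strand, TLR5 at chr1:223108401-223143281 on the minus strand, CD14 at chr5:140631728-140633701 on the minus strand and MYD88 at chr3:38138661-38143022 on the plus strand. TLR7 (chrX:12867072-12890361) and TLR8 (chrX:12906620-12923169) are neighbours on the plus strand of the X chromosome. TLR1 and TLR6 are close paralogs: of the 150-base windows in their exons, 0.851% in TLR1 and 1.09% in TLR6 recur without a mismatch in the other gene, and of the 50-base windows 2.81% and 3.56%. How the authors' filter on alignments treated fragments from such stretches is not stated, so the values of both genes carry that uncertainty. Of the exon bases of TLR2, 3.495% are shared with RNF175, and the other members share none with another gene.

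The sequence before the start of TLR4 is shown because TLR4 rose most of the tested receptors under MI-503, and that of MYD88 because it was the most abundant of the 10 genes and did not rise. Both were read from RefSeq (GRCh38.p14), which held a promoter for 7 of the 10 genes, and run 5′ to 3′ over the 250 bases before the RefSeq start, the TLR4 stretch at chr9:117704153-117704402 and the MYD88 stretch at chr3:38138411-38138660, both on the plus strand. Capitals mark matches on either strand to GAGGAA, the core of the site of PU.1, a myeloid transcription factor, and in MYD88 also 1 match to an interferon regulatory factor (IRF) motif at -61, present in 3.57% of promoters. GENCODE places further starts of both genes within these stretches.
TLR4: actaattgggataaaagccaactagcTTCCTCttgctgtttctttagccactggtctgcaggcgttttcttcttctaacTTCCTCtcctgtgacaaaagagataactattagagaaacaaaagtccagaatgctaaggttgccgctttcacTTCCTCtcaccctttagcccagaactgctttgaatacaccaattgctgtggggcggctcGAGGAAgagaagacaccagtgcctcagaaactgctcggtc
MYD88: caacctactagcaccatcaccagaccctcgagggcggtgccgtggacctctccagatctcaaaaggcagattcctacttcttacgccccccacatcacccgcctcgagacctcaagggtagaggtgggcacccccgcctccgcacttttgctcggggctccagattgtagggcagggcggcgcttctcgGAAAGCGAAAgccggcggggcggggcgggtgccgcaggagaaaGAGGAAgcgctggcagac

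TLR4 held 4 matches to GAGGAA, at -224, -171 and -99 on the opposite strand and at -40 on the strand of the gene, counted from the start. Over 300 bases around the start, 27.9% of 35116 RefSeq promoters held at least 1 match and 32 of them (0.0911%) held 4 or more. MYD88 held 1 match at -18, TLR6 1 at -195 and CD14 1 at -96, and TLR2 and TLR5 held none. For TLR2 and TLR5 the RefSeq start lies 200 and 33 bases inside the counted gene, so the window was not placed on its outer start. CD14 also held 1 match to the AP-1 motif TGANTCA at -223, present in 7.71% of promoters and not shown. The RefSeq starts of TLR6 and CD14 lie inside the counted genes, downstream of their outer starts, so only 30 bases around each GAGGAA match are shown, TLR6 at chr4:38856995-38857024 and CD14 at chr5:140633254-140633283, both read on the minus strand. TLR8 held a match to the C/EBP motif TTGCNNAA, present in 10.5% of promoters, at -108, shown within chrX:12906500-12906529 on the plus strand. A match gives letters only and says nothing of binding in these cells.
TLR6: tttgtaagttgcTTCCTCacacgaattaga
CD14: ggggctggctcgGAGGAAgagaggtgggga
TLR8: gtcaattaatgaTTTGGCAAcagctaagaa

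MI-503 against DMSO asks what Menin inhibition does to these genes. TLR1, TLR2, TLR4 and TLR6 were called higher at an adjusted p under 0.05 (edgeR's quasi-likelihood test with Benjamini-Hochberg adjustment over 14683 genes), each of them above every DMSO library in all 4 MI-503 libraries, and LY96 and MYD88 were not called. Over all genes tested, 22% were called higher and 29.3% lower in this comparison, 3235 and 4307 genes (3968 and 3356 with upper-quartile scaling), and 21.2% lay above and 29.1% below DMSO without overlap. Of the members 0 were called lower by edgeR, DESeq2 or limma-voom, and 1, MYD88, had a value below 0 with an unadjusted edgeR p under 0.05.

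TLR4, the LPS receptor, had the steepest rise. Its DMSO libraries held 0.641, 0.643, 0.806 and 1.19 CPM and its MI-503 libraries 7.40, 7.41, 10.3 and 11.1 CPM for replicates 1 to 4. The highest DMSO library thus lay far below the lowest MI-503 library. The fitted rise was 11.2-fold, 3.48 ± 0.20 in log2 (SE, n = 4 each, edgeR adjusted p = 6.57e-10), which ranked 12 of the 14683 genes. The DMSO values rested on 14 to 25 fragments per library and the MI-503 values on 160 to 272.

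TLR2, the lipoprotein receptor, had the highest level per kb of the 7 receptors in every DMSO and MI-503 library. It stood at 11.5, 15.6, 10.8 and 10.8 CPM in DMSO replicates 1 to 4 and at 28.1, 28.3, 27.7 and 25.7 CPM in the MI-503 replicates. DMSO replicate 2 stood above the other 3 DMSO libraries but well below every MI-503 library, and the log2 fold change was 1.18 ± 0.10 (SE, n = 4 each, edgeR adjusted p = 5.90e-08). TLR1, its partner for triacylated lipoproteins, went from 2.97, 4.22, 3.84 and 3.51 CPM to 8.51, 7.99, 8.50 and 7.16 CPM, and the groups did not overlap. Its log2 fold change was 1.15 ± 0.13 (SE, n = 4 each, edgeR adjusted p = 1.06e-06). TLR6, the partner for diacylated lipoproteins, went from 8.06, 9.23, 7.44 and 7.35 CPM to 15.40, 14.96, 15.02 and 14.65 CPM. Here too every MI-503 library lay above every DMSO library, with a log2 fold change of 0.90 ± 0.09 (SE, n = 4 each, edgeR adjusted p = 6.33e-07), the smallest of the 4 rises.

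**Figure D1:**
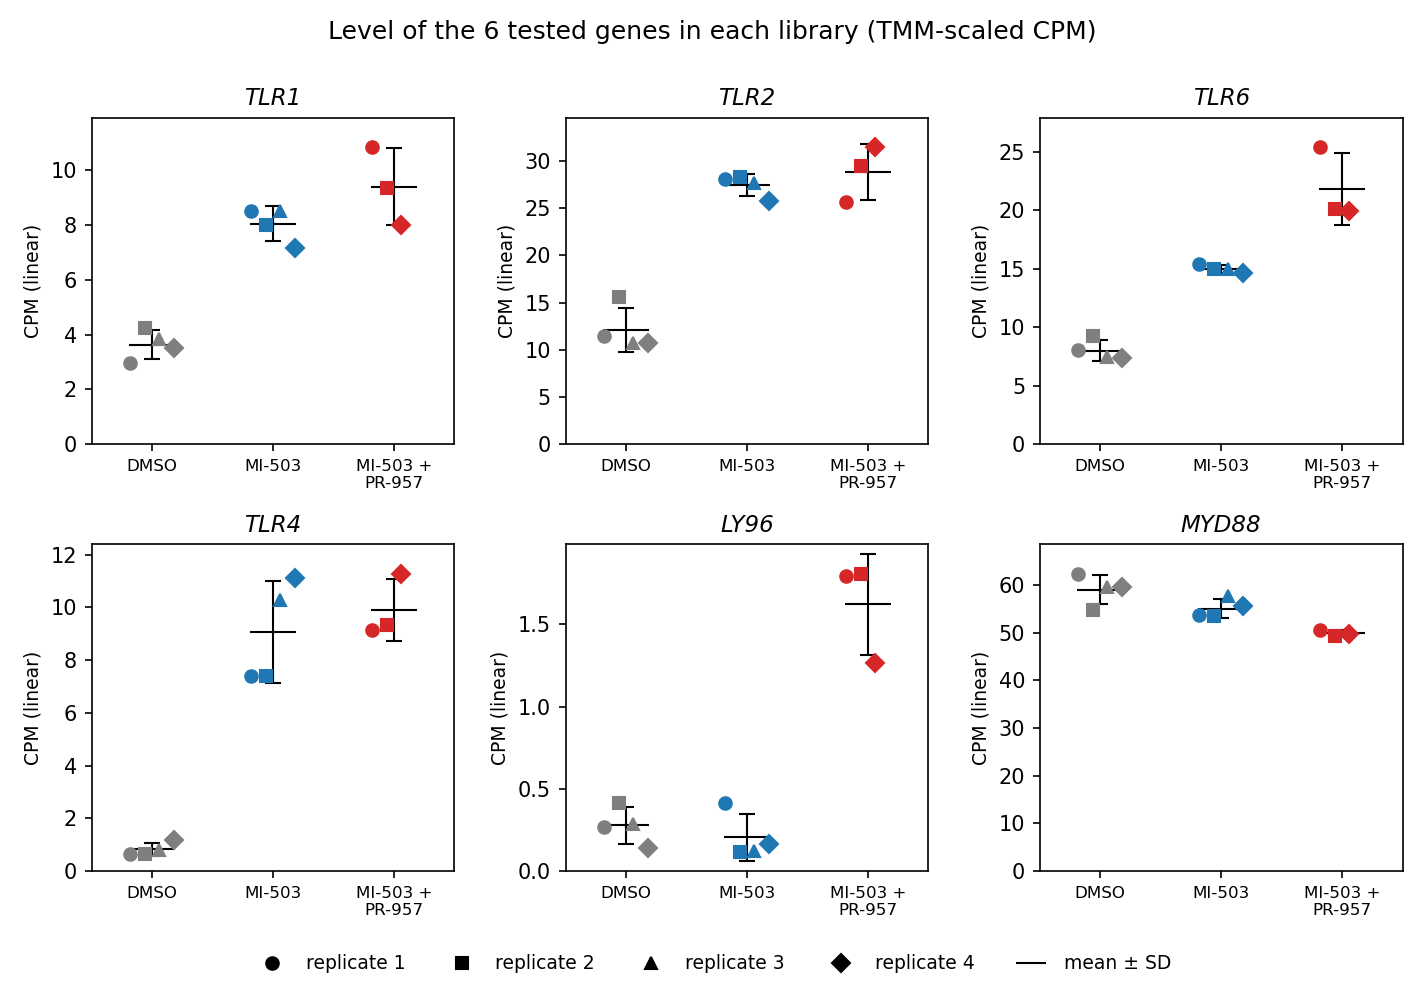
Level of TLR1, TLR2, TLR6, TLR4, LY96 and MYD88 in each library, in TMM-scaled CPM on a linear axis from 0, by group; symbols mark the replicate and bars the mean ± SD (n = 4, 4 and 3). The 4 receptors sit higher in every treated library than in every DMSO library, LY96 is high only in the 3 combination libraries among those plotted, and MYD88 moves little.

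LY96, which encodes MD-2, did not move with TLR4 under MI-503. It was counted 8, 9, 6 and 3 times in DMSO and 9, 4, 3 and 4 times in MI-503 replicates 1 to 4, or 0.277 ± 0.111 and 0.205 ± 0.142 CPM (SD, n = 4 each), and the groups overlapped. The log2 fold change was -0.52 ± 0.46 (SE, edgeR adjusted p = 0.371) with a 95% interval of -1.59 to 0.55, so at this depth a moderate change either way was not detectable. MYD88, the adaptor, was counted at least 985 times in every library and stood at 62.3, 54.8, 59.5 and 59.7 CPM in DMSO and 53.7, 53.5, 57.6 and 55.6 CPM in MI-503. These ranges overlapped, the log2 fold change was -0.10 ± 0.05 (SE, n = 4 each, edgeR adjusted p = 0.0752), and the adjusted p was 0.0197 without DMSO replicate 2, the lowest DMSO library. CD14, the LPS co-receptor and a classical monocyte marker, was counted 6, 4, 9 and 4 times in DMSO and 3, 5, 5 and 6 times in MI-503, and the groups overlapped.

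The combination against DMSO gave the same direction for the 4 receptors and added LY96 and MYD88. TLR1, TLR2, TLR4 and TLR6 were called higher and MYD88 lower, where 31.7% of all genes tested were called higher and 32.8% lower. LY96 was higher as well, but it reached the 3 libraries that the filter asks for only in the combination. Without overlap 29.3% of all genes tested lay above and 31.2% below DMSO. The log2 fold changes (SE, n = 3 and 4) were 3.61 ± 0.21 for TLR4, 1.24 ± 0.11 for TLR2, 1.39 ± 0.13 for TLR1 and 1.45 ± 0.10 for TLR6, with edgeR adjusted p-values of 1.78e-10, 1.80e-08, 6.75e-08 and 1.00e-09. This comparison shares its DMSO libraries with that of MI-503, so the likeness of the values is not independent. Without combination replicate 1 the values for TLR4, TLR2, TLR1 and TLR6 were 3.70, 1.35, 1.28 and 1.34.

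Combination against MI-503 asks what PR-957 added to cells that already received MI-503. TLR6 was called higher and MYD88 lower, whereas TLR1, TLR2 and TLR4 were not called. LY96 was higher as well, but it passed the filter on low counts only through the combination libraries, where it was high. Over all genes tested 23.6% were called higher and 23.8% lower in this comparison, and 23.8% lay above and 23.7% below MI-503 without overlap. For TLR4 the combination libraries held 9.13, 9.33 and 11.3 CPM for replicates 1, 2 and 4, overlapping with the MI-503 libraries, and the log2 fold change was 0.13 ± 0.15 (SE, edgeR adjusted p = 0.491) with a 95% interval of -0.21 to 0.48 (0.18 without combination replicate 1). TLR2 held 25.6, 29.5 and 31.4 CPM, a log2 difference of 0.06 with a 95% interval of -0.16 to 0.29 (edgeR adjusted p = 0.621; 0.13 without combination replicate 1). Its combination libraries lay on both sides of the MI-503 libraries. TLR1 held 10.8, 9.33 and 7.99 CPM, with a log2 difference of 0.23 and an interval of -0.04 to 0.51 (edgeR adjusted p = 0.120). For TLR1 the difference was 0.30 (edgeR adjusted p = 0.0478) without combination replicate 4 and 0.07 (adjusted p = 0.642) without combination replicate 1.

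TLR6 rose further with PR-957. Its 3 combination libraries held 25.4, 20.2 and 19.9 CPM, all above the highest MI-503 library, and the log2 fold change was 0.55 ± 0.09 (SE, n = 3 and 4, edgeR adjusted p = 1.00e-04). Replicate 1 was the highest of the 3, 1.27 times the mean of the other two, and without it the value was 0.39 (edgeR adjusted p = 2.97e-04). The ratio of TLR2 to TLR6 in CPM per kb was 1.11 ± 0.0923 in DMSO, 1.35 ± 0.0406 in MI-503 and 0.998 ± 0.222 in the combination (SD, n = 4, 4 and 3). TLR2 was thus the more abundant of the pair in every MI-503 library, and TLR6 passed it in combination replicate 1 alone among the libraries, where the ratio was 0.746.

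LY96 changed most between the treated groups. It was counted 76, 36 and 34 times in combination replicates 1, 2 and 4, or 1.79, 1.80 and 1.26 CPM, against at most 9 times in any DMSO or MI-503 library. No combination library overlapped with either other group. The fitted fold changes were 8.26-fold against MI-503 (log2 3.05 ± 0.34 SE, n = 3 and 4) and 5.77-fold against DMSO (log2 2.53 ± 0.33 SE). LY96 entered the test through the group where it was high, so no p is given for these differences. Without combination replicate 1 the log2 values were 2.92 and 2.44. The rise of LY96 thus appeared only in the libraries with PR-957 among the 3 groups, and that of TLR4 in both treated groups.

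Per kb of exon, LY96 stood above TLR4 in every DMSO library (4.09, 6.24, 3.43 and 1.17 times its level). In the MI-503 libraries it stood below TLR4, at 0.546, 0.152, 0.117 and 0.143 times, and in the combination libraries above it again, at 1.91, 1.88 and 1.09 times. The DMSO and MI-503 ratios rest on 3 to 9 LY96 fragments per library. Per kb, the receptor and its partner thus changed order under MI-503, whose ratios did not overlap with those of the other groups. This order rests on the merged exon lengths used, 12797 bases for TLR4 and 1318 for LY96. In CPM TLR4 stood above LY96 in every library.

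**Figure D2:**
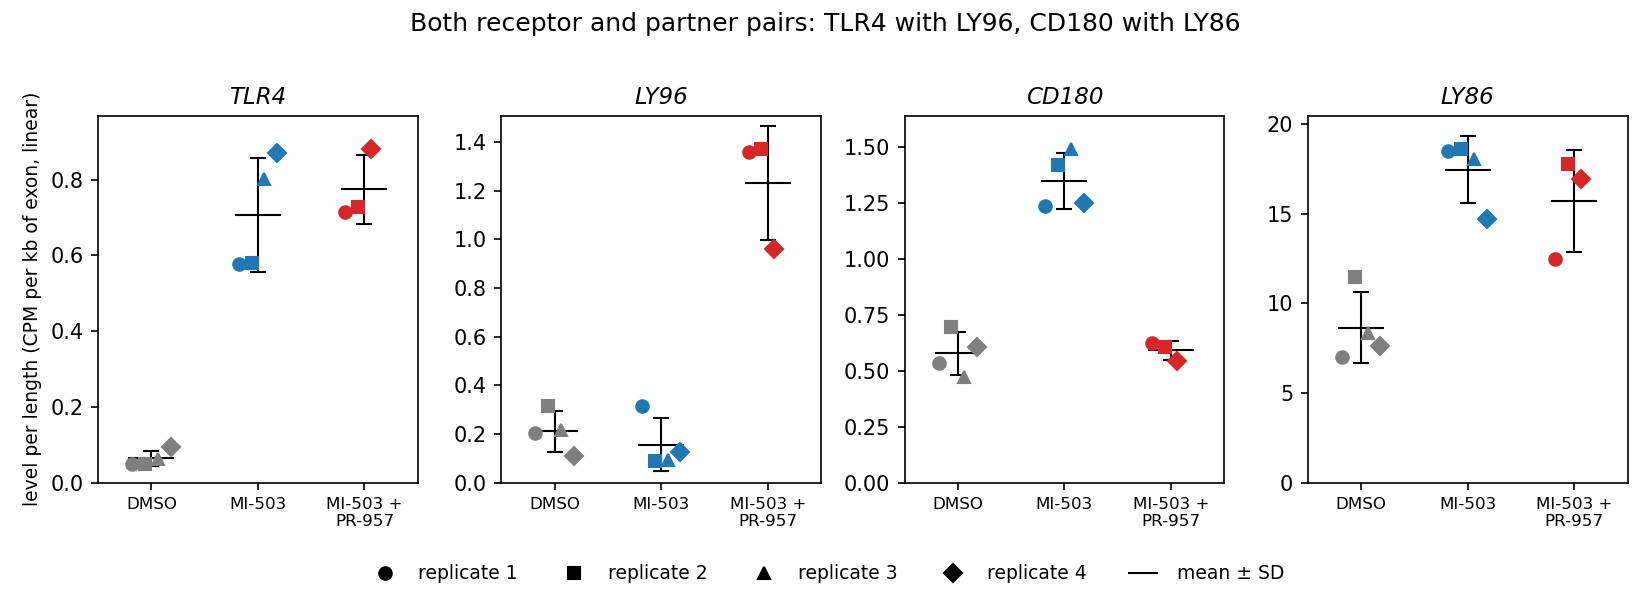
Level per length (CPM per kb of exon, linear axes from 0) of the receptors TLR4 and CD180 and of their partners LY96 (MD-2) and LY86 (MD-1) in each library; bars show the mean ± SD (n = 4, 4 and 3). TLR4 is high in both treated groups and LY96 in the combination, whereas CD180 is high under MI-503 and LY86 in both treated groups.

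MYD88 fell slightly in the combination. The 3 libraries held 50.7, 49.4 and 49.7 CPM, below every MI-503 and every DMSO library, with log2 fold changes of -0.14 ± 0.05 against MI-503 (SE, edgeR adjusted p = 0.0287) and -0.24 ± 0.05 against DMSO (edgeR adjusted p = 4.16e-04). Without combination replicate 1 these were -0.18 and -0.24. The call against MI-503 was lost without MI-503 replicate 3 (adjusted p = 0.0862) or replicate 4 (adjusted p = 0.0619). At this size the change was far smaller than that of the receptors, and MYD88 stayed the most abundant of the 10 genes per kb in every group.

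**Figure D3:**
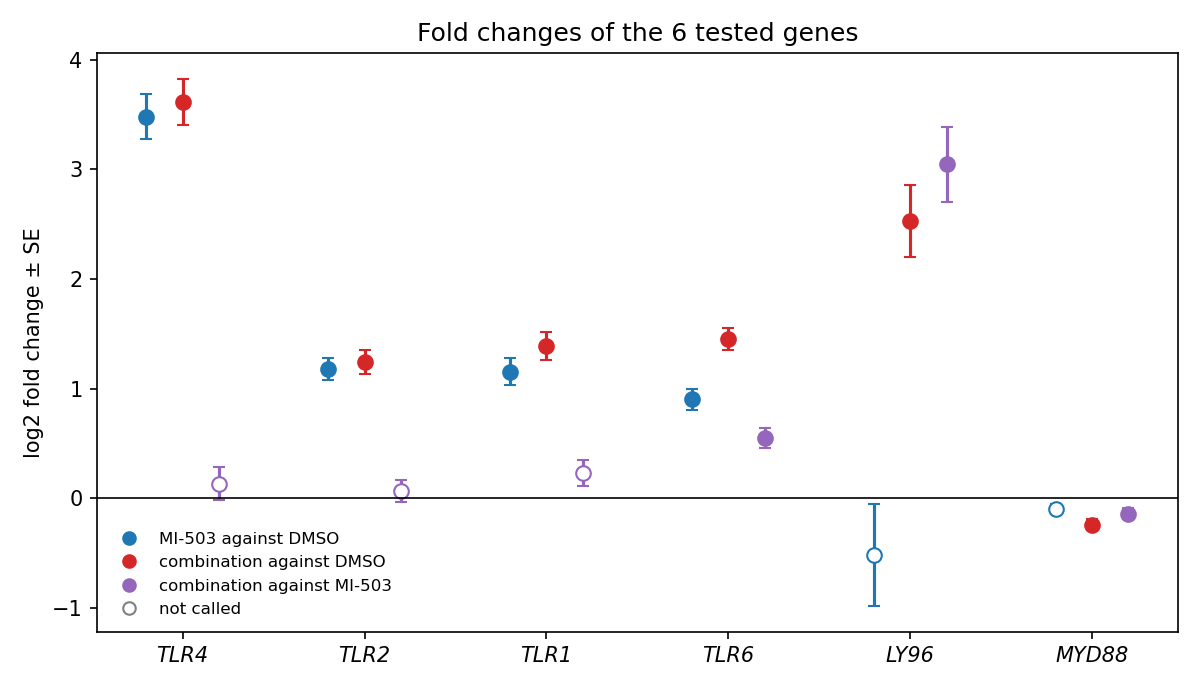
Log2 fold change ± SE of the 6 tested genes in the 3 comparisons from edgeR; filled points were called at an adjusted p under 0.05 and open points were not. TLR4 stands at 3.48 and 3.61 against DMSO and near 0 between the treated groups, and LY96 at 2.53 and 3.05 in both comparisons with the combination. LY96 passed the filter on low counts only through the combination libraries.

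The 4 genes outside the filter were described by their counts. TLR8, the endosomal RNA receptor of monocytes, was counted 1, 1, 0 and 0 times in DMSO and 6, 11, 4 and 4 times in MI-503, and 12, 4 and 2 times in the combination. Every treated library exceeded every DMSO library in CPM. Summed over libraries this was 2 fragments against 25 and 18, a ratio of summed CPM of 11.5 (95% interval for counting error alone, 2.87 to 100.2) for MI-503 and 10.1 (2.42 to 89.7) for the combination, or 6.45 (1.15 to 65.4) without its replicate 1. The exact 2-sided permutation test gave p = 0.0286 for MI-503 against DMSO, the smallest it allows with 4 against 4 libraries, and 0.343 after adjustment over the 12 tests of these 4 genes. For the combination p was 0.0571, again the smallest possible with 3 against 4. When edgeR was run with no filter on low counts the log2 fold changes of TLR8 were 3.22 and 2.97 (adjusted p = 5.34e-04 and 0.00257). That fit also gave TLR4 under MI-503 an edgeR adjusted p of 1.06e-110, against 6.57e-10 with the filter. Its p-values for genes with few fragments were therefore not taken as support.

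TLR5, the flagellin receptor, was counted 5 times in all 4 DMSO libraries together, 15 times in MI-503 and 17 times in the combination, and the ratio to DMSO was 2.76 (0.954 to 9.71) and 3.81 (1.35 to 13.2). Its libraries overlapped between all groups, with exact permutation p-values of 0.2 and 0.114. Combination replicate 1 had 2 TLR5 fragments against 6 and 9 in the other two, and without it the ratio to DMSO was 6.45 (2.23 to 22.7), that to MI-503 was 2.34 (1.06 to 5.13), and neither pair of groups overlapped. With no filter edgeR gave TLR5 an adjusted p of 0.0443 for the combination against DMSO, with the same limit as for TLR8. TLR7 had 7, 5 and 6 fragments in the 3 groups, and CD14 23, 19 and 18. For CD14 the ratio to DMSO was 0.760 (0.391 to 1.46) under MI-503 and 0.878 (0.446 to 1.70) in the combination, and both upper bounds lie below the 11.2-fold rise of TLR4. Of the 18 CD14 fragments in the combination, 13 came from replicate 4, and without replicate 1 the ratio to DMSO was 1.496 (0.739 to 2.96).

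**Figure D4:**
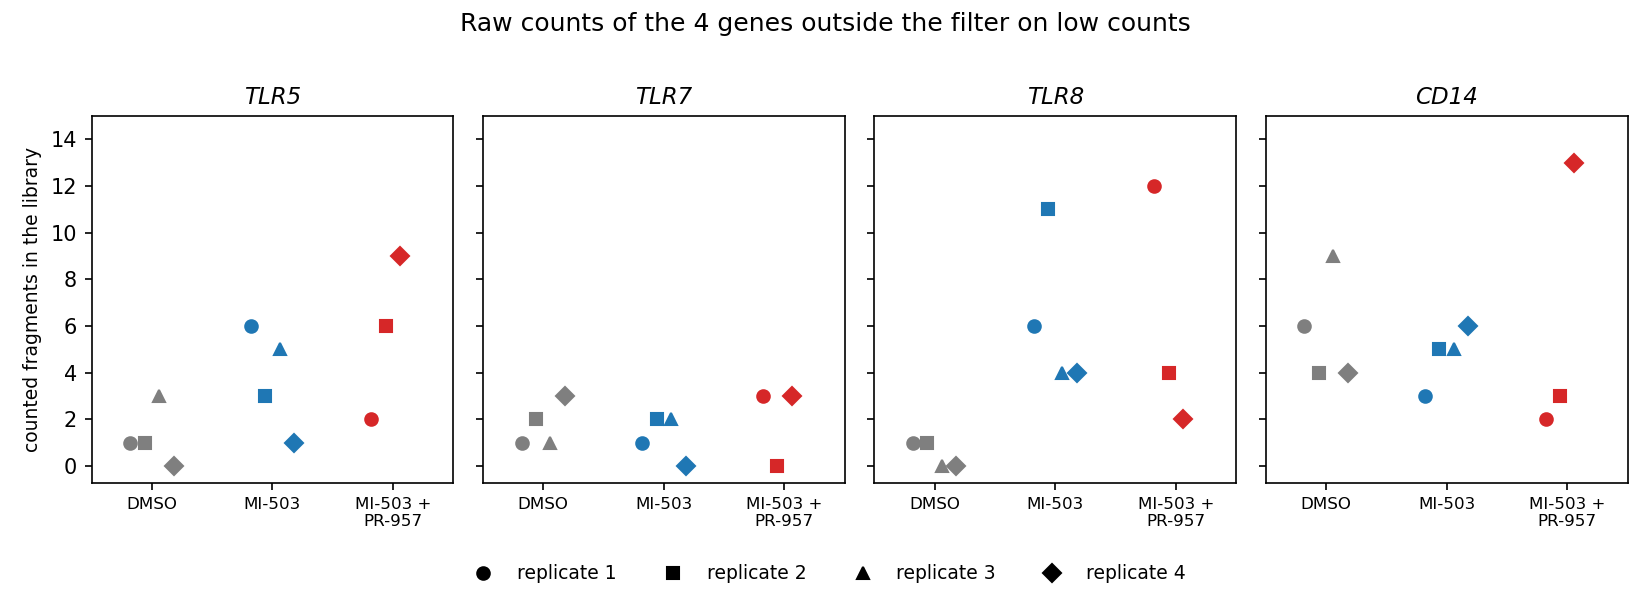
Raw fragment counts of TLR5, TLR7, TLR8 and CD14 in each library (linear axis); symbols mark the replicate, and library totals differ from 18891243 to 41153974 fragments. TLR8 has at most 1 fragment in any DMSO library and at least 2 in every treated library, while TLR7 stays at 3 or fewer in every library and CD14 overlaps between the groups.

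Per kb of exon the 10 genes kept MYD88 on top (21.96, 20.5 and 18.6 CPM per kb in DMSO, MI-503 and the combination). In DMSO TLR2 (1.29) and TLR6 (1.15) followed with overlapping ranges, then TLR1 (0.415), LY96 (0.210) and CD14 (0.152), the last pair overlapping, and TLR4 (0.0640). Under MI-503 the order was TLR2 (2.91), TLR6 (2.15), TLR1 (0.918) and TLR4 (0.707), the last pair overlapping, before LY96 (0.156) and CD14 (0.112). In the combination TLR6 (3.13) and TLR2 (3.05) overlapped, LY96 (1.23) and TLR1 (1.07) overlapped, and TLR4 (0.774) and CD14 (0.138) followed. Per kb of merged exon, TLR4 thus moved from below CD14 in DMSO to above it in both treated groups. Summed over the 7 receptor genes the level was 2.95 ± 0.401, 6.77 ± 0.171 and 8.12 ± 0.243 CPM per kb (SD, n = 4, 4 and 3), of which TLR4 made up 2.23%, 10.5% and 9.54%. TLR9, which is outside the 10 genes and this sum, averaged 1.76, 2.40 and 1.14 CPM per kb. The sums and shares therefore hold for the 7 genes only and not for the whole family. In bulk RNA, a change in the share of cells that express a gene and a change in RNA per cell cannot be told apart.

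The myeloid markers were also higher in the treated groups, not all in the same pattern. The summed level of the 8 myeloid markers was 1272 to 1357 CPM in DMSO, 1926 to 2089 in MI-503 and 2124 to 4600 in the combination. CSF1R, the receptor for macrophage colony-stimulating factor, went from 6.48 to 34.8 and 55.5 CPM, ITGAM, an integrin subunit of monocytes, from 22.9 to 55.2 and 68.5 CPM, and LYZ, lysozyme, from 95.1 to 375 and 1640 CPM. LYZ ranged from 599 to 2511 CPM within the combination. CD68 went from 63.5 to 92.7 and 192 CPM, CEBPA from 769 to 918 and 1069 CPM, and SPI1, which encodes PU.1, from 224 to 263 and 297 CPM. MPO, the myeloperoxidase of early myeloid cells, stood at 114, 216 and 130 CPM and CD33 at 35.5, 42.3 and 39.7 CPM, both higher under MI-503 than in the combination. Their part in the receptors' rise was not tested.

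By the distance between profiles over all 11 libraries (root mean square of centred log2 CPM, 11328 genes averaging 2 CPM or more), the nearest genes to TLR4 were NAV3 (0.45), JUN (0.46) and CSF1R (0.53). JUN, a subunit of AP-1, went from 2.89 to 17.3 and 22.4 CPM. For TLR2 the nearest were ICAM3 (0.09), NAPSB and SAMHD1, for TLR1 BMF (0.09), GRIN2D and RAPGEF3, and for TLR6 SLC16A5 (0.07), CAPN2 and MTMR11. For MYD88 they were YY1AP1 (0.02), ZNF45 and CTSC. TLR4 had no neighbour as close as those of the others, and its DMSO values rest on 14 to 25 fragments.

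Other members of the family were measured next to these genes. CD180, a TLR4 homolog without a TIR domain that pairs with MD-1, the product of LY86, stood at 2.97, 3.86, 2.61 and 3.37 CPM in DMSO, at 6.85, 7.87, 8.25 and 6.91 CPM in MI-503 and at 3.44, 3.36 and 3.01 CPM in the combination. It rose under MI-503 (log2 fold change 1.23 ± 0.12 SE, edgeR adjusted p = 3.73e-07) and was back within the DMSO range in the combination (0.04 ± 0.14, adjusted p = 0.821; -1.19 ± 0.13 against MI-503, adjusted p = 1.44e-06). LY86 stood at 11.6 ± 2.66, 23.5 ± 2.49 and 21.1 ± 3.83 CPM (SD, n = 4, 4 and 3) and was called higher against DMSO in both treated groups (1.03 and 0.86, edgeR adjusted p = 9.30e-06 and 6.88e-05). For the combination against MI-503, TLR4 was not called while its partner was higher, and CD180 fell while its partner was not called (-0.17, edgeR adjusted p = 0.335). TLR9, the receptor for unmethylated DNA, was at 6.82 ± 1.81, 9.29 ± 0.369 and 4.40 ± 1.13 CPM. It fell in the combination (-1.05 ± 0.17 SE against MI-503, edgeR adjusted p = 1.05e-04; -0.60 ± 0.18 against DMSO, adjusted p = 0.00745). Its call under MI-503 (0.45, edgeR adjusted p = 0.0231) was lost without DMSO replicate 1, 3 or 4 or MI-503 replicate 2 (adjusted p of 0.0567 to 0.0883). TLR3 and TLR10 did not pass the filter, with 9, 2 and 3 and with 2, 4 and 6 summed fragments in the 3 groups.

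Across the 9 lists of pathway genes around the receptors, 70 of 98 genes were tested. Under MI-503 25 (35.7%) were higher and 13 (18.6%) lower, against 22% and 29.3% of all genes tested, with a median log2 fold change of 0.08 against -0.03. The 13 lower calls were 8 with upper-quartile factors and 7 under a stricter filter. In the combination 33 were higher and 11 lower against DMSO (all genes 31.7% and 32.8%, median 0.22 against 0.01), and 24 were higher and 12 lower against MI-503 (all genes 23.6% and 23.8%, median 0.12 against 0.00). Among the called genes are MARCO, TREM1 and CXCL10, which passed the filter only through groups where they were high. The lists were chosen with earlier results of these data known, and their counts are descriptions.

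**Figure D5:**
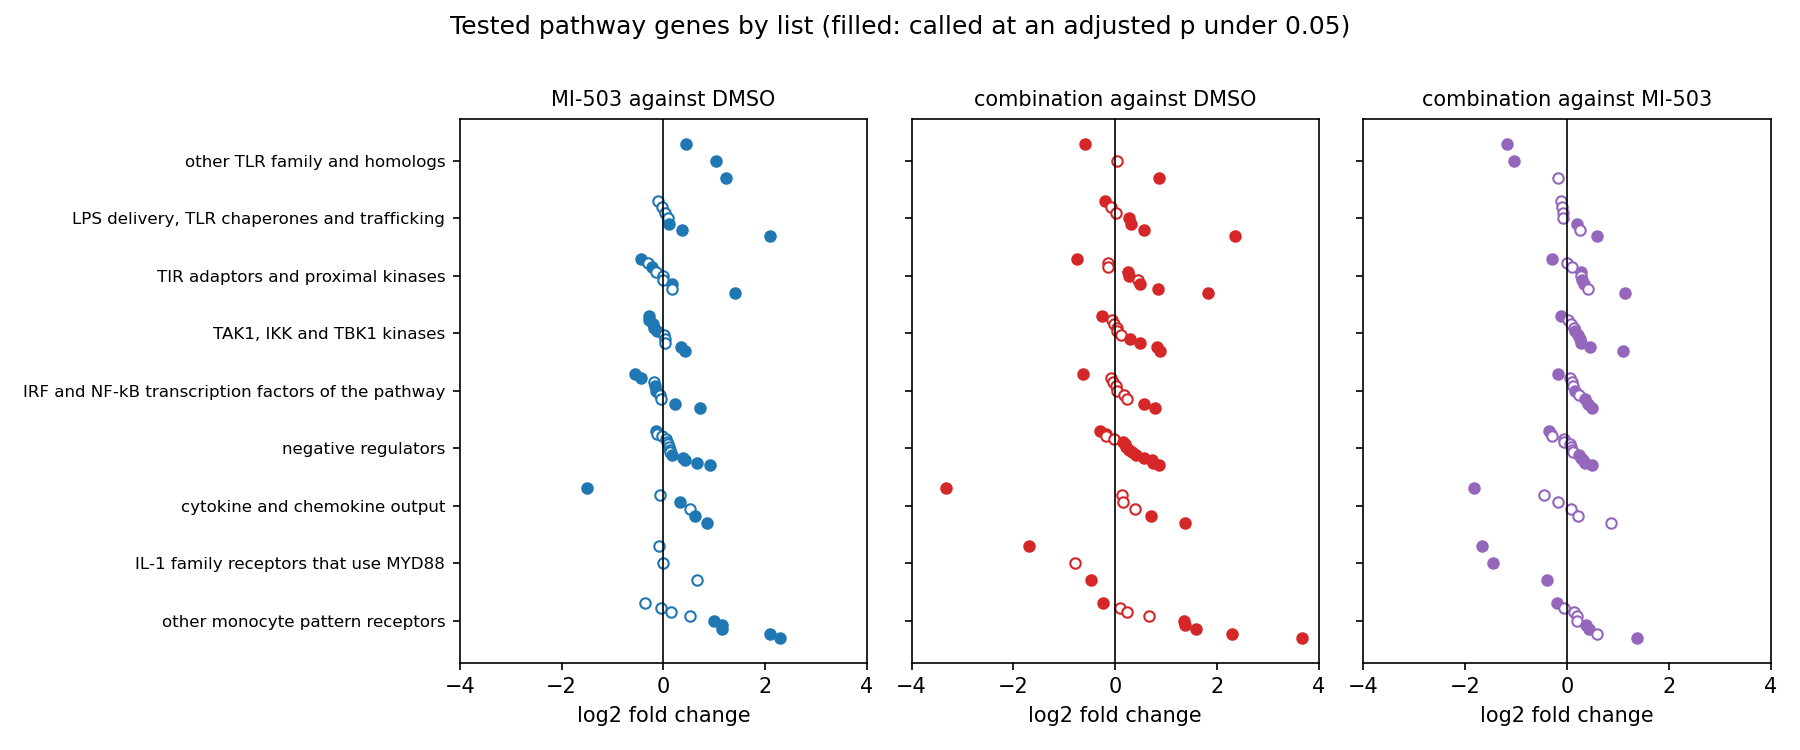
Log2 fold change from edgeR of each tested pathway gene, by list and comparison; filled points were called at an adjusted p under 0.05. Pattern receptors lie mostly to the right against DMSO, the 3 tested IL-1 family receptors to the left in the combination against MI-503, and most adaptors and kinases within 1 log2 unit of 0. Of the IL-1 family receptors, IL18RAP averaged above the level of the filter only under MI-503.

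Among genes of LPS delivery and receptor folding, 3 of 7 tested were higher under MI-503 and the other 4 were not called, where 22% of all genes tested were higher and 29.3% lower. CD36, a scavenger receptor that works with TLR2 and TLR6, went from 3.84 to 16.4 and 19.4 CPM (log2 fold change 2.10 and 2.34 against DMSO, edgeR adjusted p = 3.12e-10 and 3.84e-11). CNPY3, a folding factor of the receptors, rose by 0.36 and 0.28. HSP90B1, the chaperone gp96, was higher under MI-503 by 0.12 (edgeR adjusted p = 0.0291). In the combination it was higher by 0.31 against DMSO and 0.19 against MI-503, and CNPY4 by 0.56 and 0.58.

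Of 9 adaptors and proximal kinases 2 were higher and 2 lower under MI-503, 5 higher and 1 lower in the combination against DMSO, and 4 higher and 1 lower against MI-503. Under MI-503 these shares, 22.2% each, lay near those of all genes (22% and 29.3%). For the combination, 31.7% of all genes were higher and 32.8% lower against DMSO, and 23.6% and 23.8% against MI-503. TIRAP, which bridges TLR2 and TLR4 to MYD88, stood at 3.29, 2.65 and 5.82 CPM in the 3 groups and was higher in the combination (0.83 against DMSO and 1.13 against MI-503, edgeR adjusted p = 2.36e-05 and 2.58e-06). TICAM1, the TRIF adaptor of TLR3 and TLR4, was higher by 0.49 and 0.33 and IRAK4 by 0.25 and 0.26. IRAK2 went from 0.687 to 1.84 and 2.39 CPM. UBE2N, the ubiquitin-conjugating enzyme of the TRAF6 step, fell from 225 to 166 and 134 CPM, a call in all 3 comparisons.

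Of the 10 TAK1, IKK and TBK1 kinases 2 were higher and 5 lower under MI-503, and 6 were higher and 1 lower in the combination against MI-503. Over all genes tested, 22% were higher and 29.3% lower under MI-503, and 23.6% and 23.8% in the combination against MI-503. TBK1, the kinase downstream of TICAM1, changed direction: it stood at 37.9, 31.3 and 66.6 CPM, with a log2 fold change of -0.28 ± 0.05 under MI-503 (SE, edgeR adjusted p = 3.61e-04) and 1.09 ± 0.06 for the combination against MI-503 (adjusted p = 1.58e-10). MAP3K8 went from 6.67 to 8.97 and 12.3 CPM and IKBKE from 32.1 to 40.9 and 44.5 CPM. Among 9 transcription factors of the pathway IRF5 rose from 28.3 to 46.6 and 48.7 CPM (edgeR adjusted p = 3.55e-07 and 9.59e-08) and NFKB1 fell from 92.4 to 68.0 and 60.0 CPM (adjusted p = 1.55e-07 and 2.36e-09). NFKB2 (0.34) and RELB (0.40) were higher in the combination than under MI-503.

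Of 14 negative regulators 5 were higher and 1 lower under MI-503, and 10 were higher and 2 lower in the combination against DMSO. Of all genes 22% and 31.7% were higher and 29.3% and 32.8% lower in these comparisons. PELI2 went from 13.5 to 25.5 and 24.2 CPM, PELI3 from 10.4 to 16.5 and 17.2 CPM and CYLD, a deubiquitinase of the pathway, from 24.9 to 33.5 and 41.2 CPM. TOLLIP rose in the combination to 83.0 CPM from 55.7 in DMSO and 59.1 in MI-503. Of 9 tested pattern receptors of other families 5 were higher under MI-503, against 22% of all genes tested, and the other 4 were not called. NOD2, the muramyl dipeptide sensor, went from 7.28 to 16.2 and 21.9 CPM, TYROBP from 17.2 to 34.4 and 44.9 CPM and TREM2 from 1.09 to 2.45 and 2.80 CPM. MARCO (0.222 to 1.13 and 3.01 CPM) and TREM1 (0.139 to 0.605 and 0.726 CPM) are counted too, but passed the filter only through treated libraries, where they were high.

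The outputs of receptor signalling were mostly outside the measured range. Of 17 cytokine and chemokine genes 11 did not pass the filter, among them TNF, IL6, IL10 and IFNB1. IL23A rose from 2.06 to 3.22 and 3.41 CPM and IL1RN from 11.1 to 13.9 CPM under MI-503. CXCL10, an interferon-induced chemokine, had 0.504 CPM in DMSO, 0.173 under MI-503 and 0.0492 in the combination. It passed the filter only through DMSO libraries, where it was counted 10 to 15 times, against at most 6 times in any treated library. CXCL8, the neutrophil chemokine, did not pass but was counted 14, 24 and 33 times in combination replicates 1, 2 and 4 (0.330, 1.20 and 1.23 CPM) and at most 4 times in any DMSO or MI-503 library. IL-1 family receptors share MYD88 with the Toll-like receptors. Of the 3 tested, IL18R1 and IL1RAP were lower in the combination than under MI-503, where 23.8% of all genes tested were lower. IL18R1 stood at 5.25, 5.19 and 1.57 CPM (-1.68 ± 0.17 SE, edgeR adjusted p = 5.37e-07) and IL1RAP at 49.2, 46.0 and 35.3 CPM (-0.39 ± 0.07, adjusted p = 1.72e-04). The third, IL18RAP, averaged 0.282, 0.487 and 0.185 CPM, above the 0.413 CPM that the filter asks for only under MI-503. Its lower value against MI-503 is therefore not counted with these.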

How the data were processed

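RNA-seq was done on 11 MOLM-13 libraries. Per the labels and the study's methods, the authors trimmed reads with Trimmomatic 0.39, aligned them to hg38 with STAR 2.7.10a, filtered the alignments by a rule not stated in the sources used here, and counted fragments per gene with featureCounts 2.0.1 without strand. The deposited values used here are raw counts per gene and library. The joined deposited count table was checked against the 11 single-library files and differed in 0 values. Deposited tables of the authors' own comparisons hold log2 fold changes and p-values and were not used.

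Genes passing filterByExpr (minimum count 10, minimum total 15, large n 10) entered 1 quasi-likelihood fit in edgeR 4.0.16 (R 4.3.3) with TMM factors, 3 group means and all 11 libraries, which left 8 residual degrees of freedom. The SE of a log2 fold change is its size divided by the square root of F, and its 95% interval uses the 8 residual degrees of freedom. Genes were called at an adjusted p under 0.05. The biological coefficient of variation was 6.14%. A count of 0 allows up to 3 fragments, 0.0729 to 0.159 CPM by library, and intervals of counts cover counting error only. The 4 low genes were compared by exact 2-sided permutation tests of their CPM. The fit was tested on simulated data. DESeq2 1.42.0, limma 3.58.1 (voom), other scaling factors, other filters, a replicate block, leaving out each library and a threshold of 0.01 were alternatives.

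The members and gene lists were chosen with earlier results of these data known. Every member is named, and for each pathway list and comparison up to 4 genes with the smallest adjusted p may be named, as well as the other family members. Promoter sequences are RefSeq's for GRCh38.p14. The position and sequence of LY96 are not reported here.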

Additional observations from a re-analysis of the deposited data

Results flagged for a closer look

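In 3 of 20 pairs of a gene and a group of 4 libraries, 1 library lay apart from the other 3 by Dixon's ratio of its gap to the group's range, where chance gives about 1 in 20. For TLR2 in DMSO, replicate 2 (15.6 CPM) was above the other 3 libraries (10.8 to 11.5 CPM; ratio 0.854), and it was still below every MI-503 library. For CD14 in DMSO, replicate 3 had 9 fragments against 4 to 6 in the others (ratio 0.923). For LY96 in MI-503, replicate 1 had 9 fragments against 3 or 4 in the others (ratio 0.842). The last pair rest on under 10 fragments per library.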

How the results depend on the processing

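Of 356 alternative values for the tested members' fold changes, 348 kept their direction and their side of the threshold. So did 1465 of 1471 for the named pathway genes (IL18RAP, TREM1 and the MI-503 value of HSP90B1 not included). The first total includes LY96 (18, 19 and 19 values in the 3 comparisons) and the second MARCO and CXCL10. These genes passed the filter only through groups where they were high, so their stability is not taken as support. TLR4 under MI-503 stayed between 3.36 and 3.70 and TLR6 in the combination against MI-503 between 0.39 and 0.58. Without combination replicate 4 the uncalled differences of TLR2 and TLR4 against MI-503 turned to -0.044 and -0.0084 (ranges over single libraries left out, -0.044 to 0.125 and -0.0084 to 0.248), and without DMSO replicate 3 that of CD180 in the combination against DMSO turned to -0.041 (range -0.041 to 0.139). Without the filter, or at an adjusted p under 0.01, 0 members were called lower in the combination against MI-503, MYD88 being lost, and under the stricter filter, which leaves LY96 untested, 1 was called higher. Lower pathway calls under MI-503 fell from 13 to 8 with upper-quartile factors and 7 under the stricter filter, from 12799 genes tested. Leaving out single libraries gave 0 to 1 lower members under MI-503 (1 without DMSO replicate 2). In the combination against MI-503 it gave 0 to 1 (0 without MI-503 replicate 3 or 4). It also gave 9 to 14 lower pathway genes under MI-503 and 2 to 3 higher members in the combination against MI-503. These higher members include LY96, with the filter limit given above, and TLR1 was added without combination replicate 4. With the replicate number as a block TLR4 was 3.46 and TLR6 0.91 under MI-503, LY96 was 2.98 and TLR6 0.53 in the combination against MI-503, the block changed no call among the members, and pathway calls under MI-503 were 26 higher and 15 lower. Same-numbered libraries deviated together with correlations of -0.102 to 0.144, and not every library correlated best with its own number, so the numbers were not taken as pairs. On unscaled totals MYD88 was 51.9 CPM in the combination. The ratios of the 4 low genes without combination replicate 1 were added after seeing the data. With no filter TLR8 was also called higher under MI-503, and TLR8 and TLR5 in the combination against DMSO, calls that were not taken as support. Depth limits TLR5, TLR7, TLR8, CD14 and, outside the combination, LY96. The causes of the lost calls were not tested beyond these settings.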
